A study of Mus musculus with 7 samples.

Results

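The ligands of the bone morphogenetic protein (BMP) and transforming growth factor beta (TGF-beta) families were followed in the atrioventricular canal of Hand2 null mouse embryos. The 9 members, Bmp2, Bmp4, Bmp5, Bmp6, Bmp7, Bmp10, Tgfb1, Tgfb2 and Tgfb3, were taken by symbol from the 23284 genes counted in every library, and all 9 passed the filter on low counts that left 14290 genes for testing. The canal is the segment between atrium and ventricle in which the endocardial cushions, the forerunners of the valves, first appear. Null pools (n = 4) carried Hand2 d/d, an allele whose coding part was removed by Cre in the germline, so Hand2 was deleted in the whole embryo and not in the canal alone. Wild-type pools (n = 3) came from the same outbred NMRI stock and the same window of 18 to 23 somites, which the labels place shortly after embryonic day 9.0 although the titles read 9.5. Each library was made from 4 pooled canals and is 1 replicate.

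Both families are dimeric ligands, cut from larger precursors, that bring together type I and type II serine/threonine kinase receptors. BMP signals pass mainly through SMAD1, SMAD5 and SMAD9 and TGF-beta signals mainly through SMAD2 and SMAD3, with SMAD4 as the shared partner. In the mouse canal, myocardial BMP2 and TGF-beta2 are known signals in the change of endocardial cells into cushion mesenchyme, and BMP2 also acts upstream of the canal factors Tbx2 and Tbx3. HAND2 is a basic helix-loop-helix factor, a class of protein that binds the E-box, CANNTG.

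Reads in genes numbered 28667561 to 38938029 in null libraries and 27905601 to 44860753 in wild-type libraries. Hand2 had 7 to 26 reads in null libraries, against 1194 to 2123 in wild-type libraries (log2 fold change -6.74, SE 0.301, edgeR adjusted p = 5.72e-07), so each library matched its genotype. Levels below are counts-per-million units (CPM) over the reads in genes of each library. Fold changes are null over wild type from edgeR's quasi-likelihood test, called at an adjusted p under 0.05. Markers of heart muscle were abundant in every library, at a summed 28551 to 32933 CPM over 7 genes in null pools and 27159 to 29892 CPM in wild-type pools. All 6 canal markers were detected, at a summed 207 to 255 CPM in null pools and 142 to 276 CPM in wild-type pools. The 9 cushion mesenchyme markers summed to 440 to 636 CPM in null pools and 573 to 738 CPM in wild-type pools. Of the 9, 4 were called lower in the null, beside 2.13% of all tested genes. Log2 fold changes were negative for 7 and positive for 2, Vcan (0.18) and Snai2 (0.17). The largest part of the sum was Vcan, which was not called, at 319 to 478 CPM in null and 328 to 403 CPM in wild-type pools. The sum therefore says little about the 4 called markers, Twist1, Sox9, Postn and Snai1. Blood markers summed to 5602 to 14510 CPM in null pools and 9329 to 22038 CPM in wild-type pools, and Hba-a1 and Hba-a2, near-identical genes, were listed at 0 everywhere, where reads that align to several places are not in the counts. In bulk samples such as these, fewer cells of a type and less RNA per cell cannot be told apart.

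Of the 9 ligands, 6 had an entry in the RefSeq promoter table (build GRCm38.p6). The 250 bases before the annotated start are printed for 3 of them, because they span the E-box content of the 6, from 0 to 3. Tgfb2 is the most abundant ligand per kilobase of exon, Bmp4 has the most E-boxes and Bmp10 has none. Letters run 5′ to 3′ along the gene's strand, and capitals mark each E-box, a motif that reads as CANNTG on both strands.
Tgfb2 (chr1:186705990-186706239, minus strand): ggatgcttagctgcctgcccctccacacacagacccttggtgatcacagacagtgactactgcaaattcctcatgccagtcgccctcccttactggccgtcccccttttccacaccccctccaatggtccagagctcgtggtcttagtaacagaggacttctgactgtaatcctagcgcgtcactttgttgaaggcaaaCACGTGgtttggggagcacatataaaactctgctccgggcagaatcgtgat
Bmp4 (chr14:46390670-46390919, minus strand): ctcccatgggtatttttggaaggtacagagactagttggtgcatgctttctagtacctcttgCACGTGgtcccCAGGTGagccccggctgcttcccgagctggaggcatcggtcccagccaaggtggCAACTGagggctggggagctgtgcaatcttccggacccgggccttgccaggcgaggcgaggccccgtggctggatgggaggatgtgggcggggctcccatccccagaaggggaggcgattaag
Bmp10 (chr6:87428744-87428993, plus strand): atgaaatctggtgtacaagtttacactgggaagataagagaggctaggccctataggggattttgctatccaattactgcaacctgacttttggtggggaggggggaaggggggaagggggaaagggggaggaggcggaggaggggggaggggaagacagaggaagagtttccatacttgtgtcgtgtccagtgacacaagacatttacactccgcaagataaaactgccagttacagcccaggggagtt
The Tgfb2 window has 1 E-box, CACGTG, which begins 51 bases before the start. The Bmp4 window has 3, which begin 188, 177 and 123 bases before it. At least 1 E-box stood in 3 of the 6 members' windows, and in 66.2% of the 32851 windows of that length in the table. A match describes the letters only.

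None of the 9 ligands was called in Hand2 null canals, where 6.24% of all tested genes were called, 4.11% higher and 2.13% lower. Their log2 fold changes ran from -0.32 to 0.79, with a median of 0.33 against 0.02 over all tested genes, and 7 were positive and 2 negative. At an unadjusted p under 0.05 there were 2, Tgfb3 and Bmp7, beside 24.4% of tested genes. In 1 member, Bmp7, the groups did not overlap, as in 21.8% of tested genes. DESeq2 called none of the 9, and neither did the other 13 settings tried. The smallest adjusted p of a ligand over these settings was 0.0640, for Tgfb3 with the replicate numbers as a block. Counts were simulated for this comparison with 14216 genes in the test and well-covered genes altered. The test called 14.9% of the 1.5-fold alterations, 73.1% of the 2-fold ones and 98.5% of the 4-fold ones. The simulation altered 200 genes and gave 136 calls, against 892 calls in the data. With fewer calls the adjusted threshold demands a smaller unadjusted p, so these shares do not carry over directly to the real comparison.

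**Figure D1:**
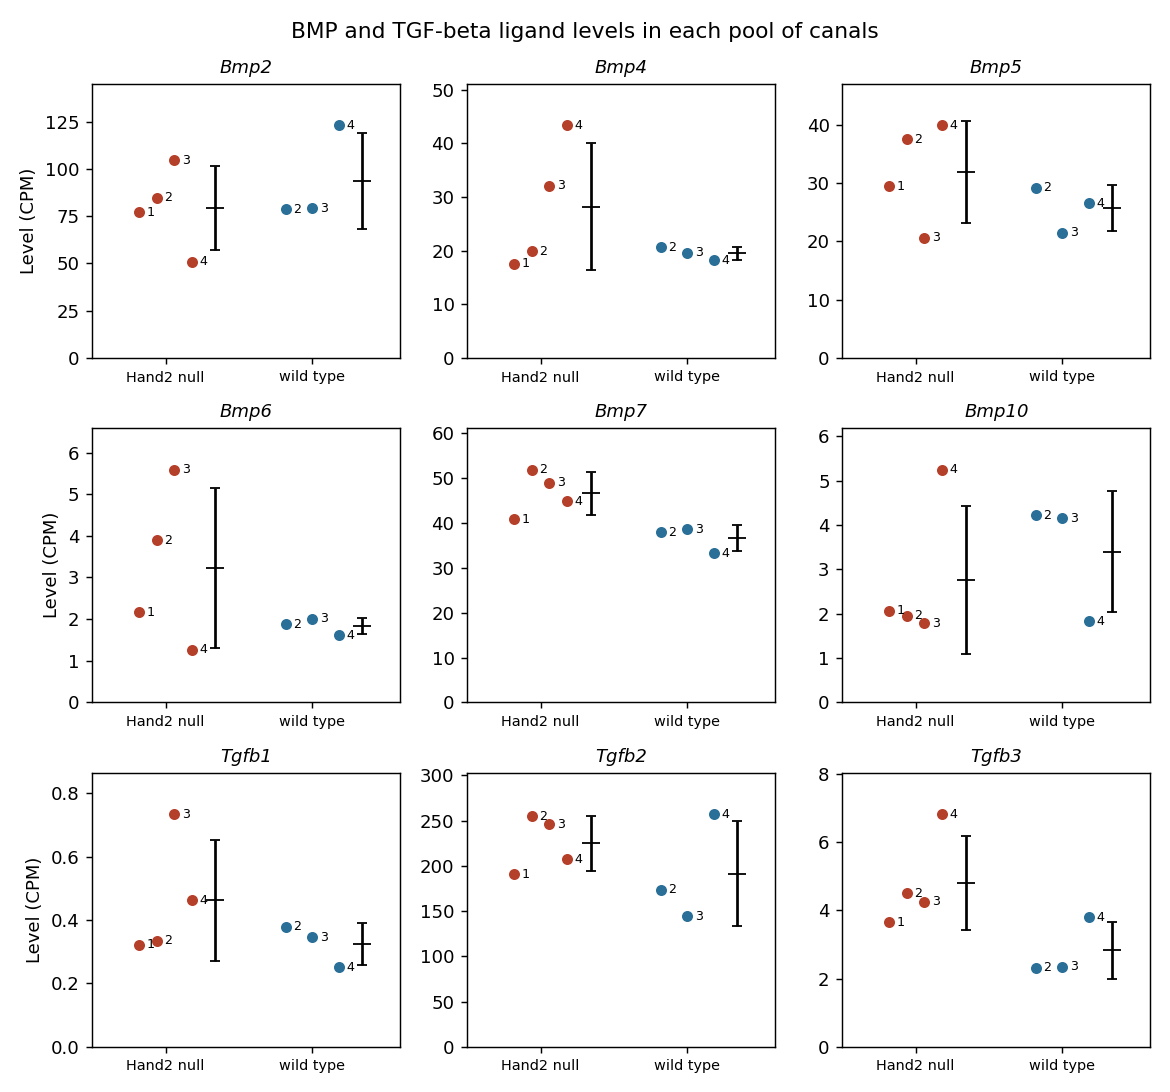
Level in CPM (y axis, from 0, with its own scale in each panel) of each ligand in the 4 Hand2 null pools (red, left) and the 3 wild-type pools (blue, right), numbered by replicate, with mean and SD beside the points. Of the 9 panels, that of Bmp7 is the one in which the groups separate, and null replicate 4 is the highest of the 7 libraries for Bmp4, Bmp5, Bmp10 and Tgfb3 and the lowest for Bmp2 and Bmp6.

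Tgfb2, the TGF-beta ligand of the canal myocardium and cushions, stood at 191, 255, 246 and 207 CPM in null replicates 1 to 4, against 173, 144 and 257 CPM in wild-type replicates 2 to 4. All 4 null values lay inside the wild-type range, since wild-type replicate 4 was the highest of the 7 libraries and wild-type replicate 3 the lowest. The means were 225 ± 30.6 CPM (SD, n = 4) in null canals and 192 ± 58.3 CPM (SD, n = 3) in wild-type canals, and the log2 fold change was 0.21 (SE 0.185, edgeR adjusted p = 0.520). The 95% interval of the fold, here and below not adjusted for the number of genes, ran from 0.876 to 1.53. Leaving out wild-type replicate 3 gave 0.05, and leaving out wild-type replicate 4 gave 0.46.

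Tgfb3, a TGF-beta ligand of cushions and later outflow valves that is best known from palate fusion, had 3.64, 4.51, 4.26 and 6.81 CPM in null replicates 1 to 4, against 2.32, 2.35 and 3.80 CPM in wild-type replicates 2 to 4. Of the null pools, 3 lay above every wild-type pool, and null replicate 1 lay below wild-type replicate 4. Its log2 difference, 0.75 (SE 0.290, edgeR adjusted p = 0.137), was the second in size among the 9, with a 95% interval of the fold from 1.09 to 2.61. Leaving out null replicate 4 gave 0.53, and leaving out wild-type replicate 4 gave 1.00. Its exons share 257 bases with Gm48008 and 163 bases with Gm37804 on the other strand in GENCODE M21, and without strand the source of such reads cannot be told apart.

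Tgfb1, the family member of endothelium and blood cells, was barely detected. It had 12, 11, 21 and 18 reads in null replicates 1 to 4, against 17, 10 and 7 reads in wild-type replicates 2 to 4. The exact Poisson 95% interval of the 7 reads was 2.81 to 14.4 reads and that of the 21 reads 12.999 to 32.1 reads. The intervals of the lowest and the highest library overlap only at their ends. Such overlap does not show that the counts differ by counting error alone. In CPM this was 0.463 ± 0.191 in null and 0.325 ± 0.0665 in wild-type canals (SD, n = 4 and 3; log2 fold change 0.47, SE 0.510, edgeR adjusted p = 0.619), and a change of up to 2.99-fold was within the 95% interval.

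**Figure D2:**
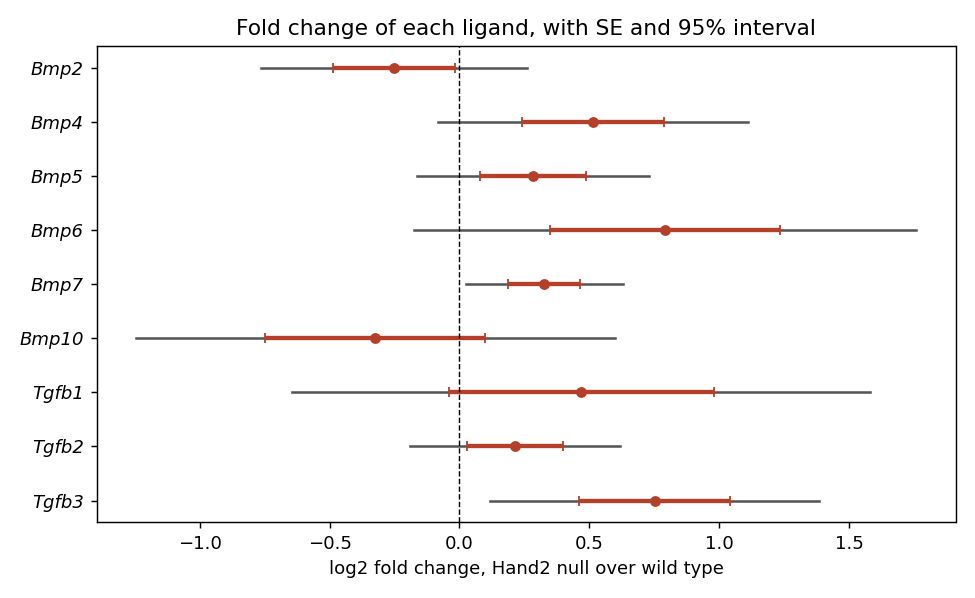
Log2 fold change of each ligand, Hand2 null over wild type (x axis, dashed line at 0), from edgeR. Points are the estimates, thick bars with caps 1 SE and thin lines the unadjusted 95% interval, which leaves out 0 for Bmp7 and Tgfb3 and includes it for the other 7.

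Bmp2, the canal BMP, had 77.2, 84.8, 105 and 50.95 CPM in null replicates 1 to 4, against 78.7, 79.3 and 123 CPM in wild-type replicates 2 to 4. The groups overlapped, with null replicate 4 lowest and wild-type replicate 4 highest. The means were 79.4 ± 22.2 CPM in null and 93.7 ± 25.5 CPM in wild-type canals (SD, n = 4 and 3), which gave -0.25 on the log2 scale (SE 0.234, edgeR adjusted p = 0.552) and a 95% interval of the fold from 0.589 to 1.20. When wild-type replicate 4 was left out the difference was -0.02, and leaving out null replicate 3 gave -0.43 (edgeR adjusted p = 0.197). Leaving out null replicate 4 gave -0.09. Wild-type replicate 4, highest for both Bmp2 and Tgfb2, also had the highest summed canal markers of the wild-type pools, at 276 CPM. Wild-type replicates 2 and 3 had 162 and 142 CPM. The canal markers were not uniform in this. Rspo3, Tbx3, Msx2 and Cacna1g were highest of the wild-type pools in replicate 4, and Kcne1 lay between replicates 2 and 3. Tbx2 was lowest in replicate 4, at 8.39 CPM against 9.83 and 10.1 CPM in wild-type replicates 2 and 3. The part of these markers in the result was not tested.

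Bmp4, a BMP of second heart field, outflow tract and pharyngeal tissue that overlaps with Bmp2 in receptor use, was uneven among null pools. It had 17.5, 19.9, 32.1 and 43.3 CPM in null replicates 1 to 4, against 20.7, 19.6 and 18.2 CPM in wild-type replicates 2 to 4. Null replicates 3 and 4 lay above every wild-type pool and null replicate 1 below, so that the null values spread 2.47-fold and the wild-type values 1.14-fold. The log2 fold change was 0.52 (SE 0.273, edgeR adjusted p = 0.271), with a 95% interval of the fold from 0.945 to 2.16, and 0.23 without null replicate 4. The 7 markers of second heart field and outflow tract summed to 55.5, 49.0, 77.2 and 115 CPM in null replicates 1 to 4, against 48.2, 44.6 and 25.2 CPM in wild-type replicates 2 to 4, without overlap between genotypes. Of these markers 2 were called higher, Isl1 and Osr1, beside 4.11% of all tested genes, and none was at 0 in all libraries. Of the 6 tested, 4 had positive log2 fold changes and 2 negative, Fgf10 (-0.30) and Hoxb1 (-0.24). Sema3c, which was not called, gave 51.8 of the 115 CPM in null replicate 4. The 7 foregut endoderm markers summed to 377 to 566 CPM in null pools and 87.5 to 93.4 CPM in wild-type pools, again without overlap and with 1 called higher. Nearly all of that sum was the called keratin gene Krt19, at 368 to 561 CPM in null and 85.1 to 89.8 CPM in wild-type pools. The defining genes Foxa1, Foxa2 and Shh were at 0.514 CPM or less in every library and did not pass the filter. Foxa1 had 2 to 10 reads in null and 0 in wild-type libraries, Shh 0 to 20 and 0, and Foxa2 2 to 10 and 1 to 7. Shh, Epcam (4.88 CPM) and Cdh1 (2.57 CPM) were highest in null replicate 4, and Foxa1, Foxa2, Nkx2-1 and Krt19 in null replicate 2. The 6 neural markers summed to 6.03 to 8.01 CPM in null pools and 12.6 to 40.5 CPM in wild-type pools, with 1 called lower. The part of these markers in the values of Bmp4 was not tested.

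Bmp7, a BMP of the whole myocardium whose loss in mice is compensated in part by Bmp5 and Bmp6, had 40.9, 51.8, 48.9 and 44.9 CPM in null replicates 1 to 4, against 38.0, 38.7 and 33.3 CPM in wild-type replicates 2 to 4. Every null pool was above every wild-type pool, and the gap between the groups was small beside their means. These were 46.6 ± 4.79 CPM in null and 36.6 ± 2.93 CPM in wild-type canals (SD, n = 4 and 3). The fold of 1.25 (log2 fold change 0.33, SE 0.139, 95% interval of the fold 1.02 to 1.55) had an unadjusted p of 0.0369 and did not pass over all genes (edgeR adjusted p = 0.172). Leaving out 1 library at a time moved the log2 value between 0.25 and 0.38.

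Bmp5 and Bmp6 are close relatives of Bmp7 and share its receptors. Bmp5 had 29.5, 37.6, 20.7 and 39.9 CPM in null replicates 1 to 4, against 29.2, 21.5 and 26.6 CPM in wild-type replicates 2 to 4. Its null pools lay on both sides of the wild-type range, 3 above and 1 below (log2 fold change 0.28, SE 0.205, edgeR adjusted p = 0.428, 95% interval of the fold 0.893 to 1.66). Leaving out null replicate 3 gave 0.43 (edgeR adjusted p = 0.0975), and leaving out null replicate 4 gave 0.15. Bmp6, a BMP of endocardium, cushions and myocardium, had 2.17, 3.90, 5.58 and 1.26 CPM in null replicates 1 to 4, against 1.87, 2.01 and 1.61 CPM in wild-type replicates 2 to 4. Its null values spread 4.44-fold, the widest range of the 9 ligands, while the wild-type values spread 1.24-fold. Its log2 fold change was the largest of the 9, at 0.79 (SE 0.444, edgeR adjusted p = 0.297, 95% interval of the fold 0.885 to 3.38), and was 0.37 without null replicate 3 and 1.05 when null replicate 4 was missing (edgeR adjusted p = 0.106). Exons of Bmp6 share 224 bases with Txndc5 on the other strand. Txndc5 was counted in its own right, at 81.2 to 110 CPM in null and 97.7 to 117 CPM in wild-type libraries. Reads set aside as ambiguous were 1.46% to 1.69% per library, so reads in the shared bases may be missing from both genes. Exons of Bmp5 share 1878 bases with the antisense gene Gm26903, which has no count of its own, so part of the reads of Bmp5 is uncertain.

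Bmp10, made by the trabecular myocardium of the chambers and needed there for growth, was low in the canal. It had 2.06, 1.95, 1.78 and 5.24 CPM in null replicates 1 to 4, against 4.21, 4.15 and 1.83 CPM in wild-type replicates 2 to 4. Null replicate 4 stood apart from the other null pools and was the highest library, while wild-type replicate 4 was as low as the other 3 null pools. The log2 fold change was -0.32 (SE 0.423, edgeR adjusted p = 0.683) with all libraries and a 95% interval of the fold from 0.422 to 1.51, and -0.84 without null replicate 4 (edgeR adjusted p = 0.184). The 8 chamber markers summed to 2939, 2695, 3388 and 2995 CPM in null replicates 1 to 4, against 3192, 3872 and 2155 CPM in wild-type replicates 2 to 4. Wild-type replicate 4 was thus the lowest wild-type pool in both, and null replicate 4 did not stand out in the sum. Single markers differed. Gja5 (97.6 CPM) and Gja1 (279 CPM) were highest of all libraries in null replicate 4, while the other chamber markers were highest in another library. The part of these markers in the values of Bmp10 was not tested. Of the 8 chamber markers, 1 was called higher and 2 lower, beside 4.11% and 2.13% of all tested genes, and none was at 0.

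To compare ligands with each other, CPM were divided by the length of each gene's merged exons in kilobases (GENCODE M21, GRCm38). On this scale of CPM per kilobase the order in null canals was Tgfb2 at 43.2 ± 5.88, Bmp2 at 22.3 ± 6.25, Bmp4 at 13.7 ± 5.78, Bmp7 at 12.7 ± 1.30 and Bmp5 at 8.35 ± 2.28 (SD, n = 4). In wild-type canals it was Tgfb2 at 36.8 ± 11.2, Bmp2 at 26.4 ± 7.16, Bmp7 at 9.99 ± 0.798, Bmp4 at 9.44 ± 0.598 and Bmp5 at 6.74 ± 1.03 CPM per kilobase (SD, n = 3). The other 4 members, Tgfb3, Bmp6, Bmp10 and Tgfb1, lay between 0.213 and 1.42 CPM per kilobase in null means and between 0.1495 and 0.834 in wild-type means, with Tgfb1 last in both. Bmp4 and Bmp7 are neighbours whose ranges overlapped in both groups, Bmp2 and Bmp4 overlapped in null pools, as did Tgfb3, Bmp6 and Bmp10 among themselves where they were neighbours. Tgfb2 was above Bmp2 in each of the 7 libraries, although the ranges of the wild-type pools overlapped.

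In the mix of ligands null replicate 4 had the least Bmp2 and the most Bmp4. TGF-beta ligands made up 43.1%, 46.1%, 42.7% and 41.4% of the summed CPM per kilobase of the 9 in null replicates 1 to 4, against 39.8%, 36.7% and 45.6% in wild-type replicates 2 to 4. Tgfb2 alone gave 94.7% to 97.1% of the TGF-beta part in null pools and 97.02% to 97.6% in wild-type pools. Within the BMP part, Bmp2 gave 43.3%, 40.4%, 44.8% and 24.1% in null replicates 1 to 4, against 42.9%, 45.1% and 57.4% in wild-type replicates 2 to 4. The ratio of Bmp2 to Bmp4 was 2.56, 2.47, 1.89 and 0.683 in null replicates 1 to 4, against 2.21, 2.35 and 3.93 in wild-type replicates 2 to 4, and null replicate 4 was the library with more Bmp4 than Bmp2 transcript per kilobase. The 9 ligands summed to 103 ± 11.5 CPM per kilobase in null and 91.6 ± 17.2 in wild-type canals (SD, n = 4 and 3), and the groups overlapped.

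**Figure D3:**
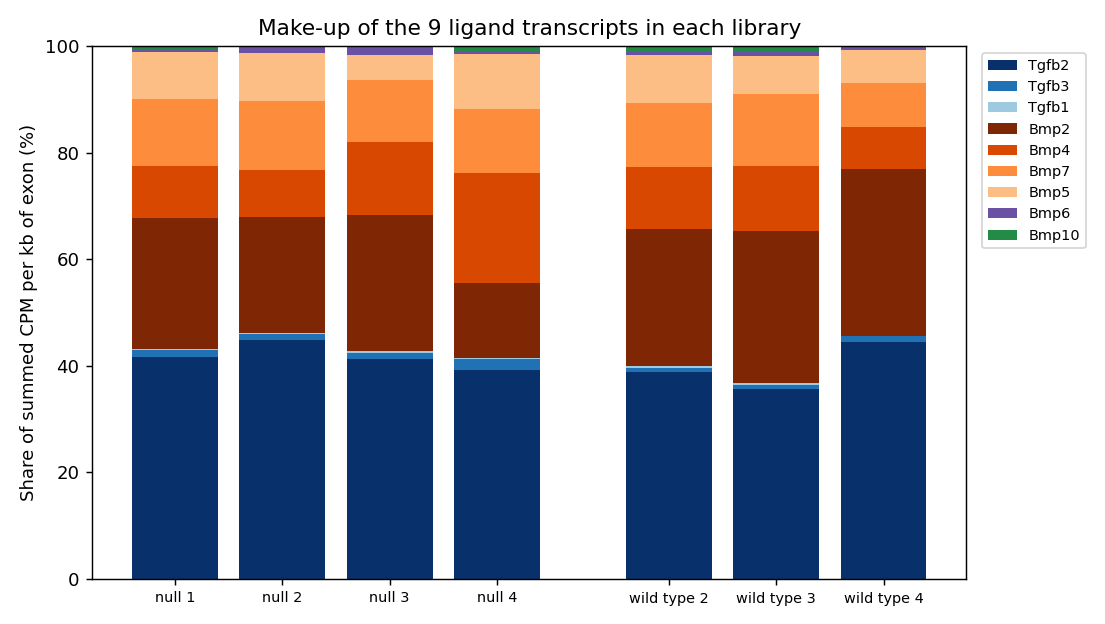
Share of each ligand in the summed CPM per kilobase of exon of the 9 (y axis, percent) in each of the 4 Hand2 null and 3 wild-type libraries (bars). Tgfb2 takes 35.6% to 44.8% in every bar, and null replicate 4 has the smallest share of Bmp2 (14.1%) and the greatest of Bmp4 (20.7%).

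For Bmp2 and Tgfb2, the genes with the most similar profile over the 7 libraries were found by the smallest root mean square difference in centred log2 CPM. For Bmp2 they were Jak2, Ahdc1 and Arf6, at 0.156 to 0.161, beside an SD of Bmp2 itself of 0.408. For Tgfb2 they were Chst15, Rin2 and Iscu, at 0.0833 to 0.104, beside an SD of 0.296. None of the 6 was called.

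The rest of the pathway was read from lists by role, in which 7 of 82 tested genes, each counted once, were called (8.54%, beside 6.24% of all tested genes). Other ligands of the superfamily were mostly silent, with 10 of 24 passing the filter and none called. The 2 with the highest mean CPM over the 7 libraries were Inha, the inhibin alpha subunit, at 10.2 ± 3.04 CPM in null and 6.19 ± 0.368 CPM in wild-type canals (SD, n = 4 and 3; log2 fold change 0.69, edgeR adjusted p = 0.0997), and Inhba, the activin A subunit, with 0.82 (edgeR adjusted p = 0.457).

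Of 13 receptors, 1 rose and none fell (7.69% called, beside 6.24% of all tested genes), with a median log2 fold change of -0.03. It was Acvrl1, the type I receptor ALK1 of endothelium, which binds BMP9 and BMP10. Acvrl1 had 12.1, 8.585, 7.15 and 11.1 CPM in null replicates 1 to 4, against 2.23, 1.56 and 0.968 CPM in wild-type replicates 2 to 4. The groups did not overlap (log2 fold change 2.58, SE 0.313, edgeR adjusted p = 0.000684), and the call held in all 14 other settings. The 9 endocardial and endothelial markers summed to 471 to 531 CPM in null pools and 317 to 364 CPM in wild-type pools. Of the 9, 4 were called higher, beside 4.11% of all tested genes, and none was at 0. Their log2 fold changes were positive for 7 (Tek at 0.08) and negative for 2, Nfatc1 (-0.09) and Npr3 (-0.18). The part of these markers in the rise of Acvrl1 was not tested. Its ligand gene Bmp10 was not called (above), and Gdf2, which encodes BMP9, had 0.0698 to 0.565 CPM in null and 0.242 to 1.07 CPM in wild-type libraries. Gdf2 was named after its values were seen.

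Of 13 SMADs and their regulators, none was called, and all log2 fold changes lay between -0.21 and 0.36. Those with the highest mean CPM were Skil, a repressor of SMAD complexes, at 199 ± 27.7 CPM in null and 153 ± 33.8 CPM in wild-type canals (log2 fold change 0.36, edgeR adjusted p = 0.221), and the shared partner Smad4, at 90.9 ± 27.7 CPM in null and 96.2 ± 26.2 CPM in wild-type canals (-0.09, edgeR adjusted p = 0.859; SD, n = 4 and 3).

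Secreted modulators gave 2 calls, both higher, among 14 tested of 18 (14.3%, beside 4.11% of all tested genes called higher). Tll1, a tolloid protease that frees BMPs by cutting chordin, had 3.05, 4.51, 3.28 and 4.03 CPM in null replicates 1 to 4, against 0.602, 1.07 and 0.609 CPM in wild-type replicates 2 to 4. The groups did not overlap, and the call held in all 14 other settings (log2 fold change 2.27, SE 0.332, edgeR adjusted p = 0.00231). Leaving out null replicate 4 left 1 called modulator, as did leaving out either of wild-type replicates 2 and 3, and leaving out null replicate 3 gave 4.

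Of 15 genes for precursor cutting and latency none was called. Fbn2, a microfibril protein that binds BMP propeptides, was at 286 ± 59.5 CPM in null and 198 ± 15.2 CPM in wild-type canals (log2 fold change 0.51, edgeR adjusted p = 0.0850). Furin, the protease that cuts the ligand precursors, was at 52.7 ± 10.3 CPM in null and 76.4 ± 9.85 CPM in wild-type canals (-0.55, edgeR adjusted p = 0.0815; SD, n = 4 and 3). Fbn2 and Furin were each called in 2 of the 14 other settings. Without null replicate 3 Furin was called, at -0.71 (edgeR adjusted p = 0.0121), among 3 called genes of the list, and 1 gene was called when null replicate 4 or wild-type replicate 4 was left out.

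Of 19 genes known as targets of either family, 1 rose and 3 fell, with a median log2 fold change of -0.08. This was 21.1% of the list, beside 6.24% of all tested genes called, and the difference between these shares was not tested. Ctgf, a matricellular TGF-beta target, rose to 36.2, 70.1, 56.0 and 48.5 CPM in null replicates 1 to 4, against 16.0, 22.9 and 14.4 CPM in wild-type replicates 2 to 4 (log2 fold change 1.54, SE 0.230, edgeR adjusted p = 0.00261). The 3 that fell were the transcription factors Sox9, Snai1 and Msx1, at -1.27, -1.25 and -1.46 (edgeR adjusted p = 0.0145, 0.0157 and 0.0477). They overlap with the markers of cushion mesenchyme (Sox9 and Snai1 stand in both lists), and all 3 lost their call without null replicate 1. Snai1 also lost it without wild-type replicate 2 or 4, and Msx1 without null replicate 2 or 4 or either of those wild-type pools. Leaving out null replicate 1 left 1 called target and leaving out wild-type replicate 2 left 2, and Sox9 stood at -0.80 when wild-type replicate 4 was left out.

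**Figure D4:**
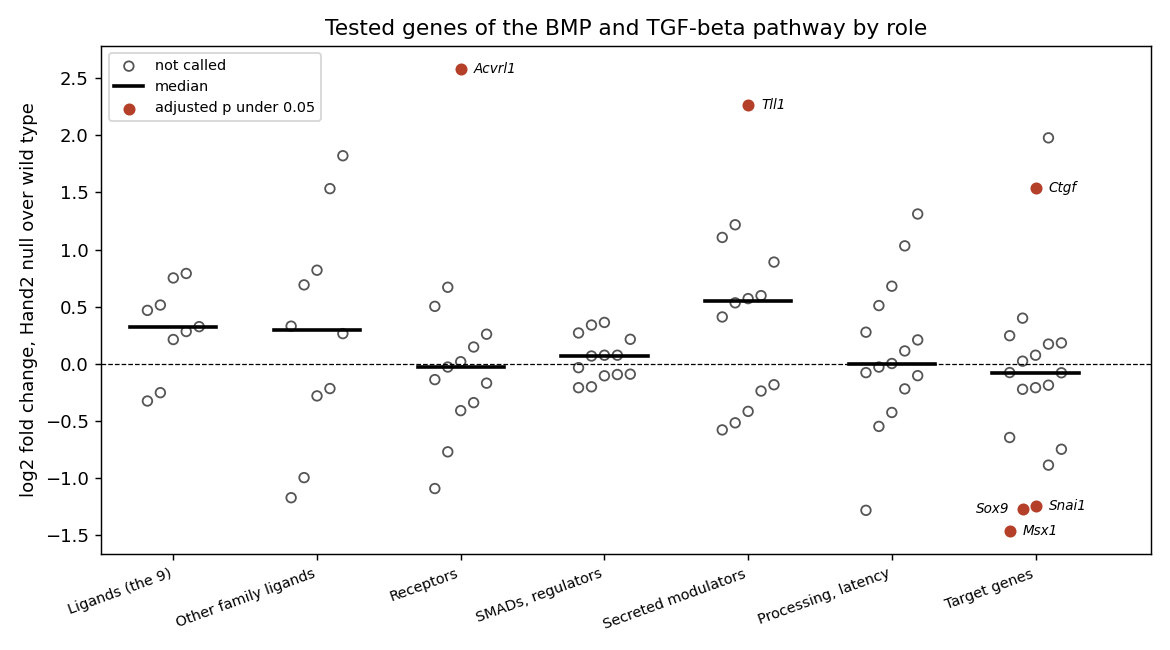
Log2 fold change, Hand2 null over wild type (y axis), of the tested genes of the pathway by role (columns), with called genes filled and named and a bar at each column's median. The 9 ligands hold no filled point, and the named points are Acvrl1, Tll1 and Ctgf above 0 and Snai1, Sox9 and Msx1 below.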

How the data were processed

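Per the labels' protocols, ribosomal RNA was depleted, cDNA was amplified over 8 PCR cycles and single 50 nt reads were sequenced without strand. Of 4 pools planned per genotype, 1 wild-type pool was not sequenced for its RNA quality. The deposited files hold raw read counts per gene symbol. The submitters' processing notes name build mm9 and the tools SAMtools, HTSeq and TopHat2 (2.0.13), and the annotation is not given in the sources used here. The 5 summary lines of each file (7.31% to 14.2% of reads in no gene) were left out. The Poisson intervals of reads and the floor of 3 reads (0.0669 to 0.108 CPM) cover counting error only, since reads after PCR without molecular identifiers are not independent. Intervals of fold changes rest on the spread between pools.

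CPM are counts over reads in genes. Fold changes came from edgeR 4.0.16 in R 4.3.3 (quasi-likelihood F test, TMM, minimum count 10, genotype only, 5 residual degrees of freedom), with Benjamini-Hochberg adjustment over all tested genes. SE is the log2 fold change over the square root of F. DESeq2 1.42.0 and 13 other settings were alternatives. The labels do not say whether pools came from separate litters, so p-values measure the spread between these pools. Members and lists were chosen with earlier results of these data known. Named were Hand2, the members, called list genes (up to 4 by p, otherwise the 2 with the highest mean CPM) and the 3 most similar genes of Bmp2 and Tgfb2. Single cell type markers were named in addition, after their values were seen. A called modulator that the rule named is not reported here and is not plotted. Smad6 and Smad7 stand in 2 lists. The scripts were tested on simulated data with 200 changed genes, in which 12 of 136 calls were false.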

Additional observations from a re-analysis of the deposited data

Results flagged for a closer look

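Bmp10 was 5.24 CPM in null replicate 4, far from the other 3 null pools by Dixon's gap criterion for 4 samples (0.918 against a critical value of 0.829). Skil was lowest in the same pool, at 157 CPM against 211 to 214 CPM in the other null pools (0.961). Of 23 genes checked in the null group 2 stood apart in this way, and chance gives about 1 in 20.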

How the results depend on the processing

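All 125 values of the 9 ligands under the 14 other settings kept their direction and stayed above the threshold. Tgfb1 could not be tested with the stricter filter. The replicate numbers 2, 3 and 4 occur in both genotypes, and the deviations of same-numbered pools from their group means correlated at -0.0749 for number 2, 0.266 for number 3 and 0.156 for number 4. With 3 shared numbers these values cannot settle whether the numbers mark pairs, and the labels give no batch. The main test therefore used genotype only, and a fit with the replicate numbers as a block stands beside it. Null and wild-type replicates 3 and 4 correlated best with their own number, while null replicate 2 was closest to wild-type replicate 4 (0.138) and wild-type replicate 2 to null replicate 4 (0.0889). With the replicate block 1379 genes were called (814 higher, 565 lower) against 892 (587 higher, 305 lower) in the main test, and Inha (log2 fold change 0.82, adjusted p = 0.0329) and Fbn2 (0.58, adjusted p = 0.0415) were called while Msx1 was not (-1.30, adjusted p = 0.0710). Of the lists, the other ligands and the latency genes then had 1 call each, and no ligand among the 9 was called.

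DESeq2 called 1826 genes (1015 higher, 811 lower), with 1 among the other ligands, 2 receptors, 4 modulators, 5 latency genes and 7 targets. Inha and Fbn2 were among them (DESeq2 adjusted p = 0.0487 and 0.0436). The log2 change of Skil was 0.36 and did not pass in any setting. With both null replicate 2 and wild-type replicate 4 left out, 421 genes were called, with 1 latency gene and 1 target. With no filter on low counts 1 latency gene was called. With 1 library left out the calls ranged from 256 (without wild-type replicate 2) to 1598 (without null replicate 3) over all genes, from 1 to 4 among modulators, from 0 to 3 among latency genes and from 1 to 5 among targets, and stayed at 1 receptor. The log2 fold change of Smad4 ranged from -0.32 to 0.15 in these fits, above 0 when null replicate 2 (0.02), null replicate 4 (0.03) or wild-type replicate 3 (0.15) was missing. Upper-quartile scaling gave 541 higher and 375 lower calls. The causes were not tested. Among the ligands depth limits Tgfb1 most, with at most 21 reads per library.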
